A study of Vitis vinifera with 12 samples.

Results

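The binding of 2 grapevine NAC factors, CARPO (also called NAC60) and NAC33, to the same kind of DNA was compared through the DAP-seq event lists made on berry DNA. All events of both lists were taken, 3757 for CARPO and 731 for NAC33, which together are 4488 of the 44889 events in the 7 lists of the series. In DAP-seq a tagged factor made outside the plant is mixed with fragmented, protein-free genomic DNA, and the fragments it retains are sequenced. An event is a place where the authors' caller found such fragments to pile up. Both factors carried a HALO tag, came from rabbit reticulocyte lysate and met genomic DNA of the cultivar Syrah, and both titles carry the number 500, for which no unit is given. The CARPO gene is Vitvi08g01843 and the NAC33 gene Vitvi19g01484 in the labels' nomenclature. The source label of both samples is berry, although the growth and treatment texts speak of leaf for every sample. Naked DNA has no chromatin, so the lists show what the proteins can hold in vitro and not what is occupied in a berry.

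NAC proteins are a large, plant-specific family of transcription factors. Their N-terminal NAC domain binds DNA, commonly as a dimer and often at sites with a CGT core, and their variable C-terminal part regulates transcription. Several grapevine members have been linked to the shift from growing to mature organs, NAC33 to the loss of chlorophyll in maturing organs and CARPO, per the title of the study, to the start of fruit ripening. A comparison of the places each protein holds on 1 DNA source asks how far their DNA binding coincides.

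Each factor had 1 library and 1 list on berry DNA, so there was no spread between replicates and no difference between CARPO and NAC33 was tested. Shares are given with exact Clopper-Pearson 95% intervals, which cover counting error only and treat events as independent. The lists hold no read totals, so the depth of the libraries is unknown, and a factor without an event at a place may have had one below the threshold. The 3 HALO-GST control samples were not analysed here.

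CARPO had 5.14 times as many events as NAC33 on berry DNA. Their significance differed in the same direction. Of the CARPO events, 1069 (28.5%, 95% interval 27.0% to 29.9%) reached a −log10 q-value of 4, and of the NAC33 events 98 did (13.4%, 95% interval 11.02% to 16.1%). The median −log10 q-value was 3.05 for CARPO and 2.58 for NAC33, against a lowest deposited value of 2.03 for CARPO and 2 for NAC33. Most events of both lists therefore lay close to the threshold at which the lists end.

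The strength of an event is the authors' own value and ranks events only within 1 list. CARPO strengths ran from 9 through a median of 18 to 6258.4, and NAC33 strengths from 10.1 through a median of 16.9 to 7854.8. In the CARPO list several places shared the top, the strongest event being 1.25 times the next and holding 3.63% of the summed strength. In the NAC33 list 1 place stood far above the rest, at 4.93 times the next event and with 19.5% of the summed strength. The strongest 10% of events held 64.1% of the summed strength in the CARPO list and 70.8% in the NAC33 list.

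Both lists covered all 19 numbered chromosomes and the sequence named chr00. Over the 485.6 Mb spanned by the events of the series, CARPO had 7.74 events per Mb and NAC33 had 1.51. Chromosome 8 had the highest density for both factors, with 11.2 CARPO events and 2.13 NAC33 events per Mb. Chromosome 12 had the lowest NAC33 density and the lowest CARPO density among numbered chromosomes, with 5.49 CARPO events and 0.95 NAC33 events per Mb. CARPO events outnumbered NAC33 events by 3.61 (chromosome 16) to 6.45 times (chromosome 18) on numbered chromosomes. On chr00 the ratio was 3.45. That sequence held 3.67% of the CARPO events (95% interval 3.09% to 4.33%) and 5.47% of the NAC33 events (95% interval 3.94% to 7.38%), and these intervals overlap. Among events with −log10 q-values of 4 or more they did not, at 7.48% for CARPO (95% interval 5.98% to 9.23%) and 24.5% for NAC33 (95% interval 16.4% to 34.2%).

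**Figure D1:**
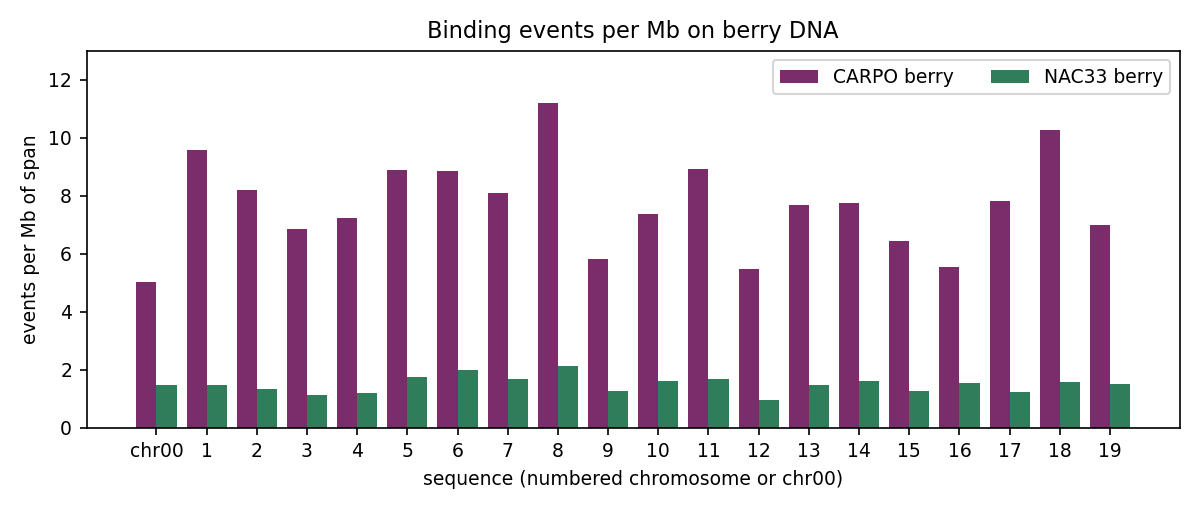
Bars give the number of events per Mb of the span covered by events on each sequence (y axis) for CARPO (purple) and NAC33 (green) on berry DNA, 1 list each. CARPO lies above NAC33 on every sequence, and both are highest on chromosome 8.

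In windows of 1 Mb the counts of the factors had a Spearman rho of 0.35 over 496 windows, which share the genome sequence and the mapping. Events of both factors fell in 356 windows, CARPO alone in 129, NAC33 alone in 4 and neither in 7. Close neighbours within 1 list were few. Of the CARPO events, 151 (4.02%) had another CARPO event within 200 bp, and of the NAC33 events 16 (2.19%) had another NAC33 event that near. The CARPO list was 5.14 times as dense, which by itself raises its share.

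The central question was how often both proteins were found at 1 place. An event was called paired when an event of the other factor lay within 100 bp. Of the 3757 CARPO events, 150 were paired (3.99%, 95% interval 3.39% to 4.67%). Of the 731 NAC33 events, 149 were paired (20.4%, 95% interval 17.5% to 23.5%). The stretches within 100 bp of a CARPO event made up 0.154% of the span, and those within 100 bp of a NAC33 event 0.0301%, so both paired shares were far above the part of the span that the other list covers. This is a description and not a test. Most events of both lists had no partner, namely 3607 CARPO events (96.0%) and 582 NAC33 events (79.6%).

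List length bears on these shares. When the CARPO list was cut to its strongest 731 events, the length of the NAC33 list, 79 of those CARPO events were paired (10.8%, 95% interval 8.65% to 13.3%) and 80 NAC33 events were (10.9%, 95% interval 8.77% to 13.4%). On leaf DNA the same comparison at 731 events a list gave 15.0% of CARPO events and 14.9% of NAC33 events for the lists labelled 500, and 15.2% and 15.0% for CARPO and NAC33 labelled 1000. The berry shares were below these, and the 95% intervals of the CARPO shares, 8.65% to 13.3% on berry DNA against 12.5% to 17.8% on leaf DNA labelled 500, overlap. With the full lists, 20.4% of the NAC33 events on berry DNA had a CARPO partner, which lay between the shares of the leaf labels. On leaf DNA labelled 500 these were 1240 of the 5870 NAC33 events (21.1%, 95% interval 20.1% to 22.2%). On leaf DNA labelled 1000 they were 1210 of 6298 (19.2%, 95% interval 18.2% to 20.2%). On the CARPO side the full lists gave a lower share on berry DNA, 3.99%, against 8.74% on leaf DNA labelled 500 and 13.7% on leaf DNA labelled 1000, where the NAC33 lists were longer. The CARPO and NAC33 leaf lists labelled 500 each came from 2 libraries, and every other list from 1.

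Paired events lay very close together. Of the NAC33 events, 66 had the nearest CARPO event within 10 bp, 36 at more than 10 and up to 25 bp, 28 up to 50 bp and 19 up to 100 bp. Beyond that, the much wider ring from 100 to 250 bp added only 18 NAC33 events, and the ring from 250 to 500 bp added 8. For 503 NAC33 events (68.8%) the nearest CARPO event was more than 5000 bp away.

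When each event could be used only once, as mutual nearest partners, there were 146 pairs. In 40 of them (27.4%) CARPO and NAC33 lay on the same base, and no other signed distance occurred in more than 4 pairs. The remaining pairs fell evenly to both sides, 53 with CARPO at the higher coordinate and 53 with CARPO at the lower one. The median distance was 13 bp and the largest 78 bp.

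**Figure D2:**
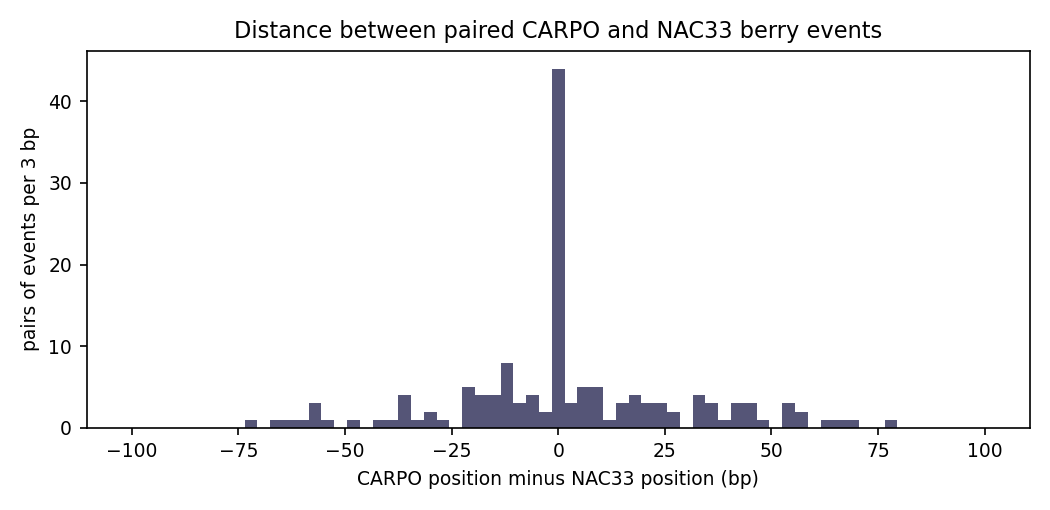
The x axis gives the CARPO position minus the NAC33 position in bp and the y axis the number of pairs per 3 bp, for the 146 mutual pairs on berry DNA. A single narrow peak stands at 0, where 40 pairs share the same base, above a low and wide spread on both sides.

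The 40 pairs on the same base were not the strongest ones. Their median rank percentile, which is the rank of strength as a percentage of the list (low is strong), was 29.1 in the CARPO list and 37.3 in the NAC33 list. The 26 pairs that lay 1 to 10 bp apart had medians of 4.27 for CARPO and 10.3 for NAC33. The 80 pairs that lay more than 10 bp apart had medians of 24.6 for CARPO and 33.9 for NAC33.

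The leaf lists, from other libraries, held most of these pairs again. Of the 146 pairs, 112 were also a pair on leaf DNA labelled 500 (76.7%, 95% interval 69.0% to 83.3%) and 111 on leaf DNA labelled 1000 (76.0%, 95% interval 68.3% to 82.7%). At both labels 95 pairs were present, and 18 (12.3%) were at neither. Distances recurred in part. Among pairs held again on leaf DNA labelled 500, 28 had lain within 3 bp on berry DNA, and 24 of these lay within 3 bp on leaf DNA too. Of the 65 that had lain more than 10 bp apart, 29 lay more than 10 bp apart on the same side, 12 on the other side, and 17 within 3 bp. On leaf DNA labelled 1000, only 24 of 35 pairs stayed within 3 bp. Of the 59 wider pairs there, 23 lay more than 10 bp apart on the same side, 10 on the other side, and 15 within 3 bp. Over all 112 pairs labelled 500, berry and leaf distances had a Spearman rho of 0.33, and over the 111 pairs labelled 1000 it was 0.16. Wide distances were thus less well held than close ones at the level of single pairs.

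Pairing was most common among strong events. Each list was divided by strength into 5 classes. In the CARPO list 79 of the 752 events of the strongest class were paired (10.5%, 95% interval 8.41% to 12.9%), against 1.99% to 2.66% in the other 4 classes. In the NAC33 list 59 of the 147 events of the strongest class were paired (40.1%, 95% interval 32.1% to 48.5%), then 22.6%, 15.1%, 15.1% and 8.90% in the weaker classes. The CARPO share thus dropped after the strongest class and stayed level, and the NAC33 share was lowest in the weakest class, although the 95% intervals of neighbouring classes below the strongest overlap. By significance, 99 of the 1069 CARPO events (9.26%) and 49 of the 98 NAC33 events with a −log10 q-value of at least 4 were paired, against 1.90% of the CARPO events and 15.8% of the NAC33 events below it. Partners of any q-value counted here. With the threshold set on both lists, 4.12% of the CARPO events and 44.9% of the NAC33 events were paired.

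**Figure D3:**
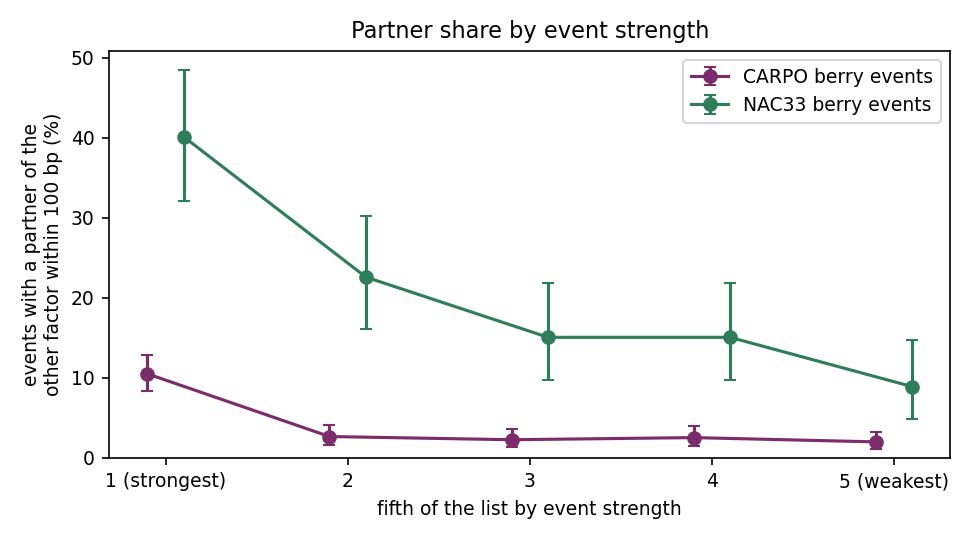
The y axis gives the percentage of CARPO (purple) and NAC33 (green) events with a partner of the other factor within 100 bp in each of 5 strength classes of the list (x axis, strongest at the left), with exact 95% intervals as bars. The strongest class stands at 10.5% for CARPO and 40.1% for NAC33, and the weakest at 1.99% for CARPO and 8.90% for NAC33.

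Within the pairs, strong CARPO events tended to face strong NAC33 events. The ranks of strength in the CARPO and NAC33 lists had a Spearman rho of 0.70 over the 146 pairs, which share the DNA source and the genome position. Of the pairs, 29 had the NAC33 event in the strongest 10% of its list, and in all 29 the CARPO event was in the strongest 10% of its own. The reverse did not hold at this cut, since in another 31 pairs only the CARPO event was that strong. The CARPO list is 5.14 times as long, so its strongest 10% reach much deeper by rank. Cuts of equal length were not compared for the pairs. In 92 pairs CARPO stood at the better rank percentile and in 54 NAC33 did. Percentiles are taken over lists of 3757 and 731 events, so these counts do not show which factor held a place more strongly. A −log10 q-value of at least 4 was reached by both events in 41 pairs, by CARPO alone in 55, by NAC33 alone in 6 and by neither in 44. In the whole lists, 28.5% of the CARPO events and 13.4% of the NAC33 events reached that value.

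**Figure D4:**
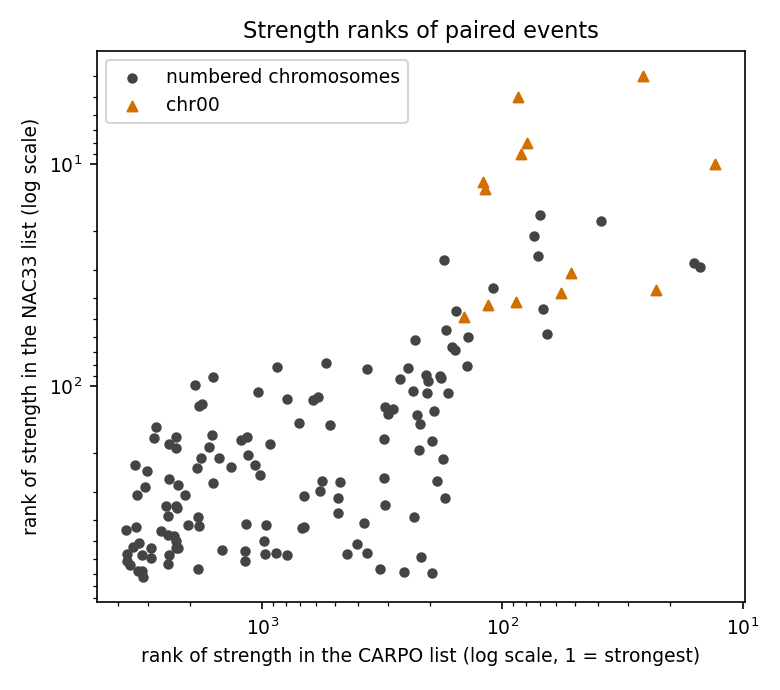
Each point is 1 of the 146 mutual pairs, with the rank of strength in the CARPO list on the x axis and in the NAC33 list on the y axis, both on log scales with rank 1 at the right and at the top. The 13 pairs on chr00 (triangles) lie at the strong end of both lists. The upper left corner, strong NAC33 with weak CARPO, and the lower right corner, strong CARPO with weak NAC33, are both empty.

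The sequence chr00 took a large part of the strongest places. It held 72 of the 376 CARPO events in the strongest 10% (19.1%) and 28 of the 74 NAC33 events (37.8%), against 1.95% of the remaining CARPO events and 1.83% of the remaining NAC33 events. All 13 pairs on chr00 had both events in the strongest 10% of their lists. On numbered chromosomes alone, 3.76% of the CARPO events and 19.5% of the NAC33 events were paired. What chr00 consists of is not given in the sources used here.

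The 8 pairs with the best mean rank percentile were 5 on chr00 and 1 each on chromosomes 10, 6 and 18. The first lay on chr00, with CARPO at 7161640 (strength 993.3, rank 26) and NAC33 at 7161626 (strength 763.4, rank 4), 14 bp apart. Each of the 5 leaf lists had an event within 100 bp of this place. The NAC33 leaf event lay 48 bp to 1 side at label 500 and 46 bp to the other side at label 1000. The second lay on chr00 with CARPO at 10871256 (strength 1648, rank 13) and NAC33 at 10871248 (strength 469, rank 10). The other 3 on chr00 had CARPO at 13687731 (rank 86), 24548915 (rank 79) and 15061848 (rank 84), and NAC33 at 13687750 (rank 5), 24548916 (rank 8) and 15061853 (rank 9).

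On numbered chromosomes, the best pair was on chromosome 10, with CARPO at 16275000 (strength 664, rank 39) and NAC33 at 16274978 (strength 408.6, rank 18). On chromosome 6 both factors had the base 3497090, with a strength of 387.3 and rank 70 for CARPO and a strength of 410 and rank 17 for NAC33. On leaf DNA that place had a CARPO event at both labels, a NAC03 event, and a NAC33 event at 1000 (rank 25) but not at 500. On chromosome 18, CARPO at 1904406 (strength 1431, rank 16) lay 7 bp from NAC33 at 1904399 (strength 308, rank 28).

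Some pairs had very unequal partners by rank percentile. On chromosome 5 both factors had the base 20203983, where CARPO ranked 197 (strength 65, −log10 q-value 17.7) and NAC33 ranked 693 (strength 12, −log10 q-value 2.1). That place was found with both factors at both leaf labels and with NAC03. On chromosome 9, CARPO at 5469159 (strength 47, rank 256) faced NAC33 at 5469201 (strength 12, rank 688), and neither NAC33 leaf list had an event there. The most unequal pairs in the other direction were CARPO at 20145027 on chromosome 18 (strength 11, rank 3397) with NAC33 at 20145064 (strength 20.9, rank 227), and CARPO at 1789357 on chromosome 5 (strength 14, rank 2763) with NAC33 at 1789364 (strength 24, rank 153).

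The strongest CARPO events mostly had no NAC33 event beside them on berry DNA, but they were paired more often than the whole list. Of the 20 strongest, 3 were paired, against 63 of the strongest 376 (16.8%) and 150 of all 3757 (3.99%). All 20 were found again with CARPO at both leaf labels. The interval of the strongest, on chromosome 9, was 20833239 to 20833439 (strength 6258.4), and the nearest NAC33 berry event was 165711 bp away. The second, at 19741323 on chromosome 11, had a strength of 5018.4 and its nearest NAC33 event 73094 bp away. Neither place had a NAC33 event in either leaf list, yet in the NAC03 leaf list they ranked 4 for the chromosome 9 place and 3 for the chromosome 11 place. Both places were thus in every CARPO list and in the NAC03 list, and in no NAC33 list.

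Other strong CARPO places lacked NAC33 on berry DNA but not on leaf DNA. The event at 1949721 on chromosome 3 ranked 6 in the CARPO berry list (strength 2602.7), and its nearest NAC33 berry event was 425901 bp away. On leaf DNA a NAC33 event lay 12 bp from it at label 500 (strength 3129) and 14 bp from it at label 1000 (strength 2338), and ranked 2 in both of these NAC33 lists. The CARPO events at 7155534 on chr00 (strength 3677, rank 4) and at 17381113 on chromosome 9 (strength 2709, rank 5) had NAC33 events on leaf DNA at 1000, at ranks 5 and 8 there, and none at 500. Among the 20 strongest CARPO events, 8 in all were unpaired on berry DNA but had a NAC33 event in a leaf list.

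Of the NAC33 list, 9 of the 20 strongest events were paired with CARPO, against 31 of the 74 in the strongest 10% (41.9%) and 149 of all 731 (20.4%). Of these 20 events, 13 lay on chr00. The strongest, on chromosome 13 at 12023109 (strength 7854.8), was 281244 bp from the nearest CARPO berry event. A CARPO event did lie 5 bp from it in the leaf list labelled 500 (rank 5) and none within 100 bp in the leaf list labelled 1000. The place on chromosome 13 ranked 1 in both NAC33 leaf lists and 2 in the NAC03 leaf list. The next NAC33 berry event by strength was at 11512290 on chromosome 5, with a strength of 1592.1 but a −log10 q-value of only 5.23. It lay 166 bp from the CARPO event that ranked 3, at 11512456 (strength 3932.6, −log10 q-value at the cap of the scale), and thus just outside the distance for a pair. Neither NAC33 leaf list had an event within 100 bp of it, and the CARPO leaf list labelled 500 had one 92 bp away (strength 1835, rank 25). Strength and significance also parted elsewhere, since 20 of the 376 strongest CARPO events and 13 of the 74 strongest NAC33 events, the strongest 10% of each list, had a −log10 q-value under 4.

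Further strong NAC33 events without CARPO on berry DNA were found at 23719596 (strength 829, rank 3), 19602213 (strength 496.6, rank 7) and 7126128 (strength 456, rank 11) on chr00 and at 16223445 on chromosome 10 (strength 515.9, rank 6). None of these 4 places had a CARPO event in either leaf list. The first 3 had a NAC33 event at both leaf labels and the one on chromosome 10 at 1000 only.

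The leaf lists show how often these one-factor places recurred. Of the 3607 unpaired CARPO events, 3225 (89.4%, 95% interval 88.4% to 90.4%) had a CARPO event in a leaf list. Of the 582 unpaired NAC33 events, 332 (57.0%, 95% interval 52.9% to 61.1%) had a NAC33 event in a leaf list. The CARPO leaf lists were also longer than the NAC33 leaf lists, and list length was not made equal for these shares. The NAC33 share went with strength, at 78.4% in the strongest class and 30.8% in the weakest, and the CARPO share was 97.2% in the strongest and 70.1% in the weakest class. For 344 unpaired CARPO events (9.54%) and 236 unpaired NAC33 events (40.5%), none of the 5 leaf lists had an event within 100 bp.

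Among unpaired events, the other factor was sometimes present on leaf DNA. A NAC33 leaf event lay at 760 of the 3607 unpaired CARPO events (21.1%, 95% interval 19.7% to 22.4%), and a CARPO leaf event at 80 of the 582 unpaired NAC33 events (13.7%, 95% interval 11.1% to 16.8%). When only events with −log10 q-values of 4 or more were kept in every list, the order turned, with 196 of 1025 unpaired CARPO events (19.1%, 95% interval 16.8% to 21.7%) against 14 of only 54 unpaired for NAC33 (25.9%, 95% interval 14.96% to 39.7%). The CARPO leaf lists were the longer ones, with 14786 and 9170 events, against 5870 and 6298 for NAC33. The share with NAC33 on leaf DNA was 35.4% in the strongest class of CARPO events and 8.82% in the weakest. For NAC33 events the share with CARPO on leaf DNA was 23.9% in the strongest class and 7.52% in the weakest.

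The most consistent one-factor places were those with the own factor at both leaf labels and the other factor at neither. There were 1971 for CARPO, 54.6% of its unpaired events (95% interval 53.0% to 56.3%), and 148 for NAC33, 25.4% of its unpaired events (95% interval 21.9% to 29.2%). These classes differed in the third factor, as did all unpaired events of CARPO and NAC33. A NAC03 leaf event lay at 823 of the 1971 CARPO places (41.8%, 95% interval 39.6% to 44.0%) and at 14 of the 148 NAC33 places (9.46%, 95% interval 5.27% to 15.4%). The intervals do not overlap, and no test was made between them. Both shares were close to those of all unpaired events, 41.2% for CARPO and 9.62% for NAC33, so they were not particular to these classes.

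NAC03 events were frequent at paired places. A NAC03 leaf event lay at 132 of the 150 paired CARPO events (88.0%, 95% interval 81.7% to 92.7%), against 1487 of the 3607 unpaired ones (41.2%, 95% interval 39.6% to 42.9%). For NAC33 it lay at 130 of the 149 paired events (87.2%, 95% interval 80.8% to 92.1%), against 56 of the 582 unpaired ones (9.62%, 95% interval 7.35% to 12.3%). Paired events were also stronger, as 79 of the 150 for CARPO and 59 of the 149 for NAC33 were in the strongest class. Among unpaired events, CARPO and NAC33 leaf events were more frequent in the strongest class than in the weakest. Paired and unpaired events were not compared at equal strength. Of the 146 pairs, 90 had an event in each of the 5 leaf lists.

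**Figure D5:**
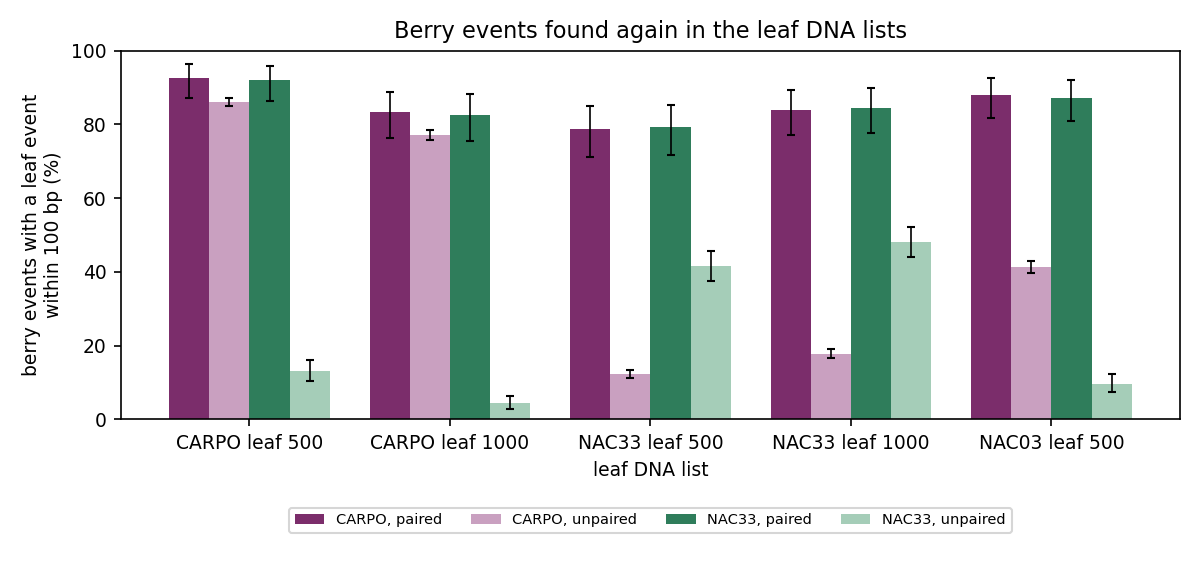
Bars give the percentage of berry events with an event within 100 bp in each of the 5 leaf lists (x axis), for paired and unpaired CARPO and NAC33 berry events, with exact 95% intervals. Paired events of both factors stand at 78.7% to 92.7% in every leaf list, whereas unpaired NAC33 events stand at 4.30% to 48.1% and unpaired CARPO events at 12.3% to 86.1%. In the CARPO leaf lists, paired and unpaired CARPO events stand close, at 92.7% and 86.1% for label 500 and 83.3% and 77.1% for label 1000.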

How the data were processed

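The submitters' processing notes name fastp 0.21.0 and Bowtie2 2.0. The genome build, the caller's settings and its control are not given in the sources used here, and positions are as deposited, counted from 1. The deposited lists have no header. The authors' score in column 7 was taken as event strength and the −log10 p-value and −log10 q-value, which end at a fixed cap, were taken from columns 8 and 9 of the deposited lists, which was inferred from the values. Each deposited interval is 201 bp wide and each of the 7 lists was used whole. Read depth per library is unknown.

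Partners were events within 100 bp on the same sequence, computed with Python 3.11.15, pandas 2.3.3 and SciPy 1.17.1, and the partner search was checked on simulated lists. Ties in strength were ranked by p-value. The span of a sequence is the highest event end in any list. Events named are the 8 pairs with the best mean rank percentile, the 2 pairs with the largest difference in rank percentile in each direction, the 6 strongest unpaired events of each factor and the strongest event of each list. Members and lists were chosen with earlier results of these data known. Alternatives were other distances, stricter events, equal list length, numbered chromosomes and ranking by p-value. Sequence motifs and gene positions were not analysed here, because no genome of the lists' build was used and 0 of the 6 gene identifiers in the labels are in the RefSeq gene table at hand.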

Additional observations from a re-analysis of the deposited data

How the results depend on the processing

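Of 46 alternative values, 29 stayed within the 95% interval of the reported share or difference, or within 1.5 times the reported number. The other 17 did not. Shares and counts cannot be negative, so only the differences between the strongest and weakest class could change sign. None of these differences did. The paired share of CARPO events moved to 2.69% at 25 bp, 4.68% at 250 bp and 10.8% at equal list length, and that of NAC33 events to 13.95% at 25 bp, 10.9% at equal list length and 44.9% with −log10 q-values of 4 or more in both lists. That threshold left the CARPO share at 4.12%. At 3 bp, a distance chosen after seeing the data, the paired shares were 1.25% for CARPO and 6.43% for NAC33. With −log10 q-values of 4 or more there were 1069 CARPO and 98 NAC33 events, chr00 held 7.48% of CARPO and 24.5% of NAC33 events, and the other factor's leaf share at unpaired events was 19.1% for CARPO and 25.9% for NAC33, so the order of these factors turned. That share for CARPO was 15.2% at 25 bp and 23.5% at 250 bp. Pairs held again on leaf DNA were 72.3% at 25 bp. By construction a narrower distance leaves fewer pairs and a stricter threshold fewer events, and other causes were not tested. The difference between the strongest and weakest class stayed between 6.52 and 9.84 percentage points for CARPO and between 28.5 and 34.0 for NAC33, also without chr00, which was added after seeing the data. No paired analysis was possible because each factor had 1 list on berry DNA, which also left no replicate to omit. The alternative for a sequence motif was not run.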
